A study of Mus musculus with 22 samples.

Results

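Histones are the proteins around which DNA is wound, and their genes fall into 2 kinds that are controlled in different ways. Histone genes were taken here as the protein-coding genes whose symbol starts with Hist1h, Hist2h, Hist3h, Hist4h, H2af or H1f. The rule matched 80 genes of the GENCODE M21 annotation, of which 75 were listed in the count tables among 21793 protein-coding genes. The other 5, Hist2h2aa1, Hist2h2aa2, Hist2h2bb, Hist2h3b and Hist2h3c1, were not analysed here. Of the 75 members, 62 carried Hist symbols and are called replication-dependent histones below, a class set by symbol alone. They were 6 H1, 16 H2A, 17 H2B, 10 H3 and 13 H4 genes, most of them in the cluster on mouse chromosome 13. The remaining 13 carried H2af or H1f symbols and are called other histones below (H1f0, H1fnt, H1foo, H1fx, H2afb1, H2afb2, H2afb3, H2afj, H2afv, H2afx, H2afy, H2afy2 and H2afz).

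The study asked how the aryl hydrocarbon receptor (AhR) and the enzyme CYP1B1 shape the response of lung epithelial cells to allergen. RNA was sequenced from sorted lung epithelial cells (live, CD45-, CD31-, EpCAM+). The cells came from WT C57BL/6 mice and from AhR-/- and CYP1B1-/- mice backcrossed to C57BL/6, of both sexes and at least 7 weeks old. Naive mice (steady state) gave 4 WT, 3 AhR-/- and 3 CYP1B1-/- libraries. Mice sensitized and then challenged intranasally with extract of the house dust mite (HDM) Dermatophagoides farinae gave 4 libraries of each genotype, from cells taken 72 h after the last instillation. The deletions were present in the whole animal, so that no cell type restricts them. The libraries are named here by the genotype and replicate number in their labels.

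Several features of the libraries touch every comparison below. The 22 libraries held 9654825 to 17878442 counts, of which a single predicted gene, Gm10800, took 0.00819% to 71.9%. After normalization on protein-coding genes, 3 counts stood for 0.107 to 1.36 CPM, the count scaled to a library of 1000000. HDM and steady-state libraries were sequenced as separate runs, and state and run cannot be told apart. The summed level of 4 Y-linked genes was 66.5 to 249.7 CPM in the naive libraries. After HDM it was 172.3 and 190.8 CPM in AhR-/- replicates 3 and 4 and at most 0.257 CPM in every other library. In WT and in CYP1B1-/- this level thus cannot be told apart from state either. The summed level of 24 hematopoietic markers was 419 to 1658 CPM in naive libraries, 3989 to 9041 CPM in WT after HDM and 879 to 8966 CPM in AhR-/- after HDM, although the sort excluded CD45+ cells. In bulk RNA, fewer cells of a type and less RNA per cell cannot be told apart. The counts of the targeted genes did not mark the genotypes as deletions. Whether reads fell inside or outside the deleted part was not tested. Ahr stood at 15.2 ± 4.66 CPM (SD, n = 4) in WT and 21.8 ± 6.04 CPM (n = 4) in the libraries labelled AhR-/- after HDM, with overlap. At steady state it stood at 9.57 ± 2.76 CPM (n = 4) and 17.5 ± 2.36 CPM (n = 3), with those labelled AhR-/- higher without overlap (edgeR adjusted p = 1.00). Cyp1b1 was at 1.79 ± 0.664 CPM (n = 4) in WT and 8.03 ± 4.00 CPM (n = 4) in the libraries labelled CYP1B1-/- after HDM, and at 1.14 ± 0.563 CPM (n = 4) and 5.09 ± 1.28 CPM (n = 3) at steady state. The libraries labelled CYP1B1-/- were the higher ones in both states without overlap, although neither difference passed (edgeR adjusted p = 0.999 and 0.822).

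Replication-dependent histone genes are transcribed when DNA is copied in S phase. Their mRNAs usually carry no poly(A) tail and end shortly after a stem-loop, a short hairpin bound by the stem-loop binding protein Slbp. The other histones are largely made throughout the cell cycle, from polyadenylated mRNAs, and replace or supplement the S-phase histones in chromatin. H2afx, whose protein is phosphorylated at DNA breaks, can give both kinds of mRNA. Because cDNA was primed with oligo-dT, the tables read mainly polyadenylated RNA, and how much tail-less histone mRNA each library contained was not measured.

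The stem-loop was searched for in the annotated GENCODE M21 transcripts as a stem of 6 bases that opens with GG, a loop of 4 bases that opens with TTT, and the reverse complement of the stem. In the 3 commonest forms the loop is in capitals. Form A was found in 23 members, form B in 7 and form C in 6.

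form A: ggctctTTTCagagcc

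form B: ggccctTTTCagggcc

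form C: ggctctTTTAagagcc

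H2afx is the only other histone with a match, and 822 bases of its annotated transcript follow the hairpin.

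H2afx: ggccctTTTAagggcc

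Among the 62 replication-dependent members, the annotated transcript ended within 100 bases of the stem-loop in 20, ran beyond it in 21 and held none in 21. Several transcripts of the last class are short, such as 312 bases for Hist1h4k, 381 for Hist1h2bl and Hist1h2bn and 393 for Hist1h2ai. Whether the annotation stops before a hairpin was not tested, so that this class does not show that the genes lack one. Hairpins within 100 bases of the end were found in 22 of 58758 protein-coding transcripts (0.0374%). A poly(A) signal (AATAAA or ATTAAA) lay in the last 50 bases in 16 of the 62 replication-dependent and 8 of the 13 other histones, against 50.2% of all protein-coding transcripts. It was present in 2 of the 20 members that end at the stem-loop and in 10 of the 21 that run beyond it. Of the replication-dependent members, 29 shared over 50% of their 50-base stretches with other genes, so that counts of these near-identical copies are uncertain. H2afz shared 63.8% of its stretches with 6 other genes and Hist1h2bc 30.6% with other genes, and their counts carry the same doubt, as do those of overlapping genes (Hist1h2be with Hist1h1e, Hist3h2a with Trim17).

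Promoter windows of 300 bases (250 before to 50 after the start, RefSeq, GRCm38.p6) were found for 51 replication-dependent and 9 other members. Both strands were searched for the octamer ATTTGCAT of H2A and H2B promoters, for CCAAT and for the TATA box TATAAA, which do not overlap in letters. The octamer was in 11 of 51 replication-dependent windows (21.6%) and 0 of 9 others, against 1.74% of all 32851 windows. All 11 belonged to H2A (6 of 13) or H2B (5 of 14) genes. Windows of neighbouring genes can overlap, as do those of Hist1h2ae and Hist1h2bg and those of Hist1h2aa and Hist1h2ba, which all hold the octamer. The same octamer can thus be counted for both genes of a pair, and the 11 windows need not hold 11 separate sites. CCAAT was in 84.3% of replication-dependent, 66.7% of other and 37.4% of all windows, and TATAAA in 60.8%, 0% and 13.6%. A match is a run of letters and not a shown binding site. The windows of 4 members that moved in the comparisons below are given with these motifs in capitals. Hist3h2a (chr11:58954435-58954734, plus strand) was lower after HDM in WT. Hist1h2ae (chr13:23571171-23571470, minus strand), Hist1h1b (chr13:21780576-21780875, minus strand) and H2afz (chr3:137864237-137864536, plus strand) were higher. Hist1h1b passed the count filter used below within the HDM libraries alone, so that its higher call supports nothing.

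Hist3h2a: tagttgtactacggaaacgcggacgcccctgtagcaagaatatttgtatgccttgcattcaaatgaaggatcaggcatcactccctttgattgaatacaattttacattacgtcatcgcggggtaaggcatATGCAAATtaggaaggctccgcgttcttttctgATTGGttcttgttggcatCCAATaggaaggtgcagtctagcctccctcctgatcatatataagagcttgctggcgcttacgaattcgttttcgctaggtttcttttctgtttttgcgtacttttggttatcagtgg

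Hist1h2ae: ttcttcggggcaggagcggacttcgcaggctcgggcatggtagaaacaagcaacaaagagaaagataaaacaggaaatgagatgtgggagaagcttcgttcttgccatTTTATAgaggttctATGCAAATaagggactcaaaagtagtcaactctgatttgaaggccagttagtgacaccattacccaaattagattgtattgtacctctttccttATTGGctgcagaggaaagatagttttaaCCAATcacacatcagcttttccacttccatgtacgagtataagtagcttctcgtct

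Hist1h1b: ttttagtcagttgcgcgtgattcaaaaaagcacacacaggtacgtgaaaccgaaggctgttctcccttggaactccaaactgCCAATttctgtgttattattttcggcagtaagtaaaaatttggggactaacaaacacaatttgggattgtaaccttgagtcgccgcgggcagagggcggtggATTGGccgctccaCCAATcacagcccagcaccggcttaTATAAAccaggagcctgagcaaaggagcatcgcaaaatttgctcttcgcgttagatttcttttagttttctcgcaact

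H2afz: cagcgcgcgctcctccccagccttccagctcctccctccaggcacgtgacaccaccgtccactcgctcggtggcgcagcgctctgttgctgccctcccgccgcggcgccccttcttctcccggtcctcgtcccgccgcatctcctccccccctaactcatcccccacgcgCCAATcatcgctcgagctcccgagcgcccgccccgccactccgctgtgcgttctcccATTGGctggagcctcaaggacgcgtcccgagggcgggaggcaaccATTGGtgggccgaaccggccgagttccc

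Hist3h2a and Hist1h2ae hold the octamer in their windows. TATAAA lies in Hist1h1b and, on the opposite strand, in Hist1h2ae. CCAAT is in each window, and H2afz holds no other of these motifs.

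Levels were then set beside the annotated transcript ends. Per kilobase of exon, averaged over the 6 groups, the median was 0.431 CPM (range 0.0424 to 3.95) for the 20 members ending at the stem-loop and 1.16 CPM (0.155 to 29.1) for the 21 running beyond it. The 21 without a stem-loop in the annotated transcript had a median of 0.188 CPM. Hist1h2bc, which belongs to them, was the highest of all 75 members at 146.8 CPM per kilobase. This H2B gene has an annotated transcript of 2 exons and 1156 bases with no stem-loop. The 13 other histones had a median of 1.61 CPM per kilobase and split into 7 expressed genes, from H2afy2 to H1f0 (30.6 CPM per kilobase), and 6 of at most 0.155 CPM per kilobase. The 20 members that end at the stem-loop supplied 1.44% of all histone counts, although they made up about as many genes as either other class. These are descriptions across genes, which are not replicates, and exon length differs between the classes.

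**Figure D1:**
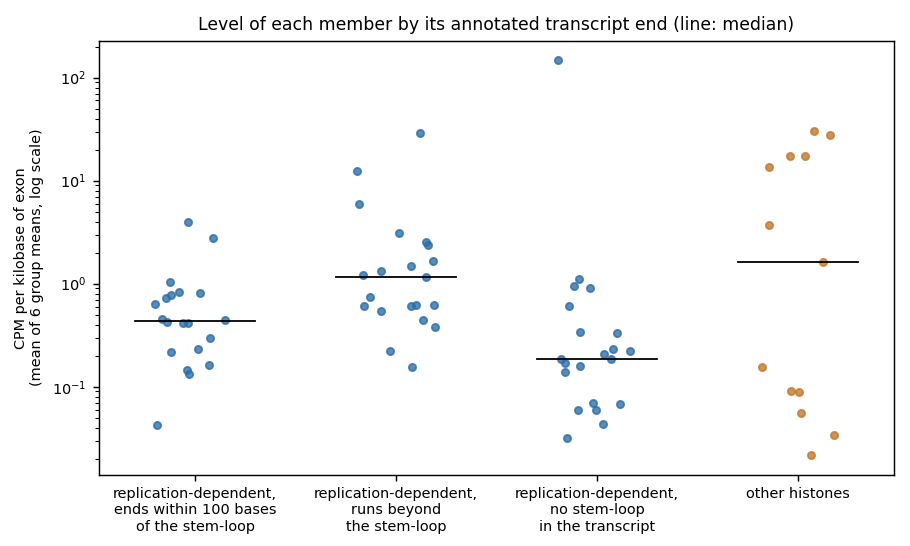
Each point is 1 histone member, placed by its annotated transcript end, and its height is the CPM per kilobase of exon averaged over the 6 group means on a log scale. The line is the median of the class (0.431, 1.16, 0.188 and 1.61), and Hist1h2bc stands alone at 146.8.

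Few members carried most of the signal. Of the 62 replication-dependent members, 39 stayed under 1 CPM in every group mean and 3 reached 10 CPM in at least one, namely Hist1h2bc, the linker histone Hist1h1c and the H2A gene Hist3h2a. Those 3 together held 86.0% ± 2.02 (SD, n = 4) of the summed replication-dependent level in naive WT libraries and 68.6% ± 9.12 (n = 4) in WT after HDM. Among the other histones, H1f0 (a linker histone of non-dividing cells), H2afz and H2afv (both H2A.Z genes), H2afx, H2afj and H2afy (a macroH2A) reached 10 CPM. Testis-type members were at or near 0: Hist1h2ba did not exceed 0.0708 CPM, Hist1h2aa 0.283 CPM and Hist1h1t 0.417 CPM in any library. Counts of 36 members passed the filter over both states, and the 39 that failed it (33 replication-dependent, 6 other) had 3 to 121 counts over all 22 libraries.

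The first comparison set WT cells after allergen against naive WT cells. The replication-dependent histones tested did not move as one after HDM, whereas genes of DNA replication and mitosis rose throughout. Of the 29 tested, 7 have an annotated end at the stem-loop, 18 run beyond it and 4 hold none. By edgeR's quasi-likelihood test at an adjusted p of 0.05, 8 of 29 replication-dependent members tested were higher after HDM and 5 were lower, while 19.0% of all 16639 genes tested were higher and 19.4% lower. The median log2 fold change of the 29 was 0.11, beside -0.11 over all genes. It includes members that did not pass the count filter within each state on its own, so that its sign supports nothing. Only 16 of the 29 passed the count filter within each state on its own, and of these 2 were higher (Hist1h2ae and Hist2h2be) and 4 lower (Hist1h2bc, Hist1h2be, Hist1h4h and Hist3h2a). The 6 that passed it within HDM alone, through the state where they are high, gave 4 of the higher calls (Hist1h1b, Hist1h3e, Hist1h4i and Hist2h4). The filter favoured that direction, and these calls support nothing. Of the 7 other histones tested, 4 were higher and 1 lower, with a median of 0.73. All 35 genes of a list of replication and mitosis genes were higher, with a median of 3.72. In the same libraries 21 of the 24 hematopoietic markers were higher, of 15 epithelial markers 2 were higher and 7 lower, of 6 mesenchymal ones 4 were lower, of 6 endothelial ones 1 was higher, and their part in these differences was not tested.

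Hist1h2bc, an H2B gene, had the highest level of the class and was lower after HDM. Its level was 185.5, 203.4, 171.2 and 218.9 CPM in the naive WT libraries and 124.5, 94.6, 48.9 and 24.6 CPM in WT after HDM. Every naive library was above every HDM library, and the log2 fold change was -1.41 ± 0.48 (SE, edgeR adjusted p = 0.0229). The summed level of the 62 replication-dependent members went from 314.9 ± 24.6 CPM (SD, n = 4) to 180.7 ± 69.4 CPM (n = 4). Without Hist1h2bc the sums were 120.1 ± 3.92 and 107.6 ± 31.5 CPM, a gap smaller than the spread of the HDM libraries. Of these, replicates 2, 3 and 4 (82.7, 105.6 and 89.5 CPM) lay under the lowest naive library (115.7 CPM) and replicate 1 (152.6 CPM) above the highest (125.1 CPM). The 13 other histones together stood at 144.2 ± 24.5 CPM in naive and 270.5 ± 68.2 CPM in HDM libraries of WT.

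**Figure D2:**
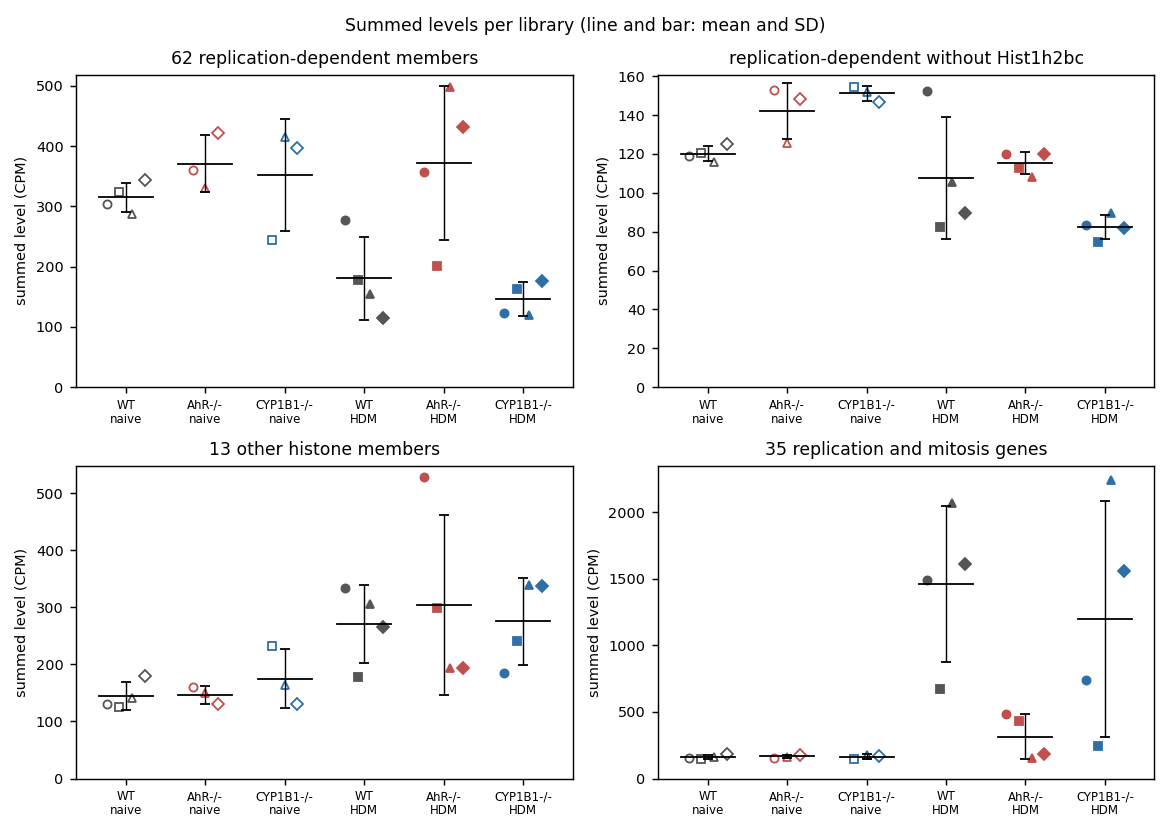
Points are libraries (open, naive; filled, HDM; circle, square, triangle and diamond for replicates 1 to 4), lines are group means and bars the SD, and heights are summed CPM. The mean replication-dependent sum in WT goes from 314.9 CPM in naive to 180.7 CPM in HDM libraries, and without Hist1h2bc from 120.1 to 107.6 CPM with replicate 1 above and the others below the naive libraries, and the replication and mitosis genes are higher in WT after HDM than in naive WT and, after HDM, lower in AhR-/- than in WT.

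Hist3h2a was 31.7, 29.2, 28.1 and 30.1 CPM in naive WT libraries and 14.0, 12.4, 12.5 and 8.01 CPM after HDM. The groups did not overlap, with a log2 fold change of -1.35 ± 0.35 (edgeR adjusted p = 0.00369). The 3 remaining lower members were Hist1h4h (-2.07, adjusted p = 0.00285), Hist1h2be (-0.98, adjusted p = 0.00515) and Hist1h2bn (-2.23, adjusted p = 0.0484), all by the same edgeR test. Hist1h2bn passed the count filter within steady state alone, where it is high, so that the filter favoured a lower call and this call supports nothing. Hist1h4h, an H4 gene whose transcript ends at the stem-loop, fell from 2.79 ± 0.487 to 0.689 ± 0.462 CPM (n = 4 each).

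Most members that rose had under 1 CPM in each naive WT library, while Hist2h2be, an H2B gene, stood at 1.64 ± 0.348 CPM there and at 3.52 ± 0.475 CPM after HDM (n = 4 each). Hist1h1b, a linker histone, was at most 0.179 CPM in naive WT and 3.05, 0.761, 1.82 and 1.92 CPM after HDM. Its log2 fold change of 3.84 ± 0.83 (edgeR adjusted p = 0.000792) was close to the 3.85 of the H2A gene Hist1h2ag (adjusted p = 0.00186). Hist1h4i rose by 3.58 (adjusted p = 0.000324), Hist1h2ao by 2.82, Hist2h4 by 2.21, Hist1h2ae by 2.08, Hist1h3e by 1.97 and Hist2h2be by 1.12 on the log2 scale. Hist1h1b, Hist1h4i, Hist2h4 and Hist1h3e passed the count filter within HDM alone, which favours a higher call, so that their fold changes and p-values support nothing. Hist1h2ag and Hist1h2ao passed it in neither state alone.

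Among the other histones, H2afz, the H2A.Z gene, was 11.7, 10.7, 9.68 and 11.5 CPM in naive WT and 78.0, 32.2, 79.5 and 57.2 CPM after HDM. The log2 fold change was 2.50 ± 0.46 (edgeR adjusted p = 0.000165). H2afx rose alike, from 7.33 ± 1.69 to 45.0 ± 21.5 CPM (n = 4 each), by 2.62 ± 0.61 (adjusted p = 0.00172). H2afy rose by 1.06 (adjusted p = 0.0135) and H2afv by 0.73 (adjusted p = 0.0484), the latter with overlapping groups. The macroH2A gene H2afy2 went the other way, from 4.65 ± 2.15 to 0.792 ± 0.382 CPM, a log2 fold change of -2.43 ± 0.40 (adjusted p = 6.28e-05). H1f0, at 43.1 ± 12.5 and 41.0 ± 8.93 CPM, did not pass the test (-0.07, adjusted p = 0.915).

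**Figure D3:**
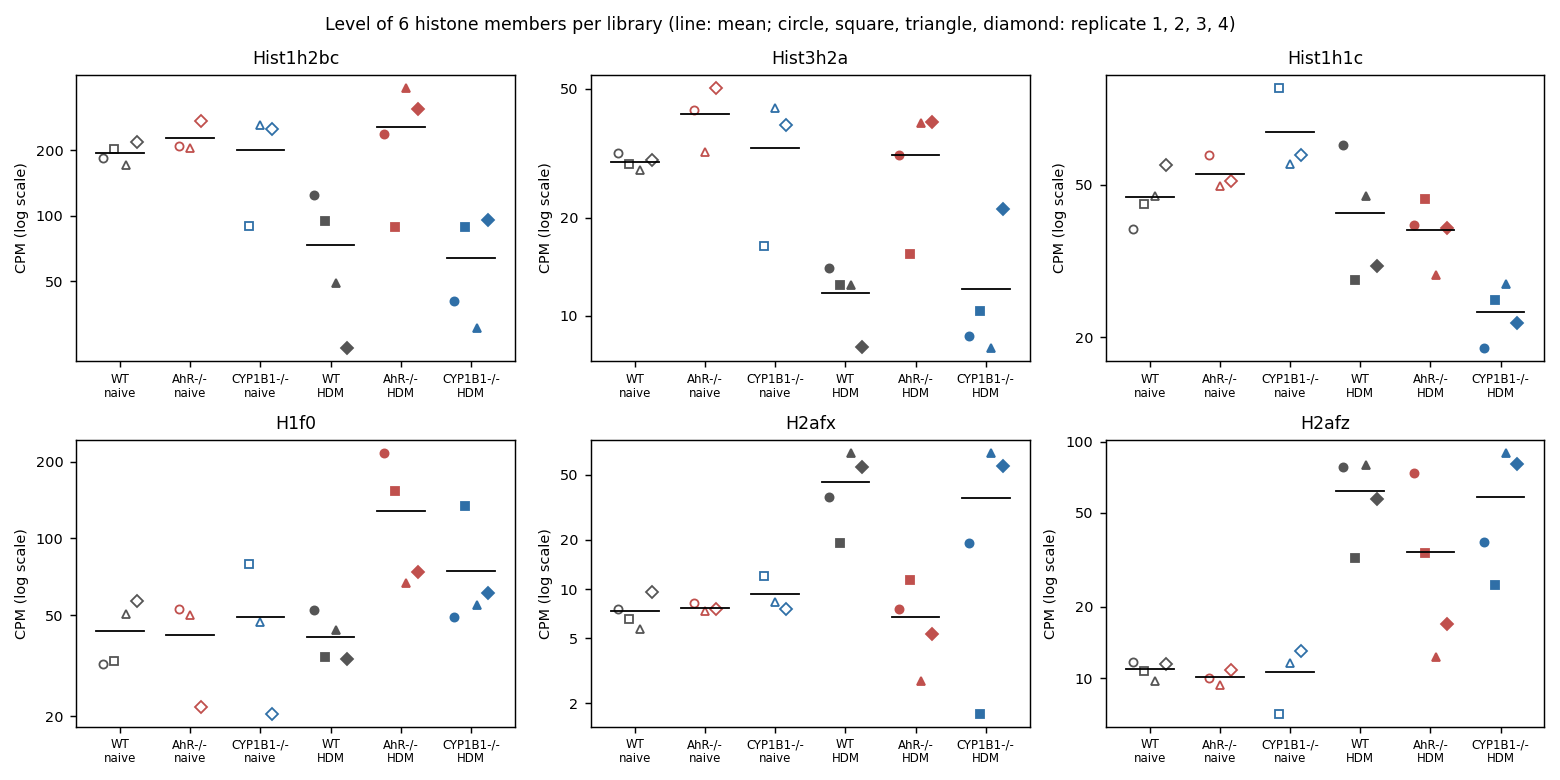
Levels of 6 members in every library in CPM on a log scale (open, naive; filled, HDM; shapes are replicate numbers; line, group mean). Hist1h2bc and Hist3h2a are lower in WT after HDM than in naive WT, H2afx and H2afz are higher, and in AhR-/- after HDM the H2afx libraries (2.73 to 11.4 CPM) all lie under the WT ones (19.3 to 68.2 CPM).

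The same comparison was made within each knockout, each against its own naive libraries. H2afz and Hist1h4i were higher and H2afy2 lower in all 3. Hist1h4i had under 0.5 CPM in each naive library and passed the count filter within HDM alone. The filter thus favoured a higher call for Hist1h4i, and its calls support nothing. Over all genes 7.34% were higher and 5.93% lower in all 3. In CYP1B1-/-, 6 of 29 replication-dependent members were higher and 8 lower by edgeR, while 15.5% of all genes were higher and 17.9% lower. Hist2h2be, Hist1h4i, Hist1h2ae, Hist1h1b, Hist3h2ba and Hist1h2ag were higher. Hist1h1c was 89.6, 56.8 and 59.8 CPM in the naive and 18.7, 25.1, 27.6 and 21.8 CPM in the HDM libraries labelled CYP1B1-/-, with no overlap. Its log2 fold change was -1.56 ± 0.28 (edgeR adjusted p = 0.000165), and Hist1h3d, Hist3h2a, Hist1h2ad, Hist1h2bf, Hist1h2be, Hist1h4h and Hist1h2bc were lower too. Of the 16 that passed the count filter within each state, 2 were higher and 6 lower. Hist1h4i, Hist1h1b and Hist3h2ba passed it within HDM alone, Hist1h2ag within neither state, and Hist1h2ad and Hist1h2bf within steady state alone. For all of these but Hist1h2ag the filter favoured the direction called, and such calls support nothing. Of the other histones H2afz and H2afx were higher and H2afy2 lower. Leaving out naive CYP1B1-/- replicate 4 gave 10 members called in place of 17.

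In AhR-/-, 2 of 29 replication-dependent members were higher after HDM (10.6% of all genes) and 2 lower (10.1% of all genes) by edgeR. The higher ones were H4 genes, Hist1h4i and Hist2h4 (2.01, adjusted p = 0.0179), and the lower ones Hist1h2ad (-2.35, adjusted p = 0.00712) and Hist1h2bf (-2.85, adjusted p = 0.0111). The first pair passed the count filter within HDM alone and the second within steady state alone, each through the state where it is high. Of the 16 that passed it within each state, 0 were called. Of the other histones, H2afz (1.78, adjusted p = 0.0147) and H1f0 (1.62, adjusted p = 0.0204) were higher and H2afy2 lower. H2afx was 8.20, 7.35 and 7.50 CPM in naive and 7.51, 11.4, 2.73 and 5.30 CPM in HDM libraries labelled AhR-/-, with a log2 fold change of -0.11 ± 0.64 (adjusted p = 0.923). Hist1h2bc did not pass the test either (0.17 ± 0.51, adjusted p = 0.854), at 228.8 ± 38.9 CPM (n = 3) before and 257.0 ± 128 CPM (n = 4) after HDM. Of the replication and mitosis list, 17 of 35 genes were higher in AhR-/- and 33 of 35 in CYP1B1-/-. In both knockouts 21 of 24 hematopoietic markers were higher and 1 lower (medians 4.00 and 4.72), and their summed level was 4843 to 7369 CPM in CYP1B1-/- after HDM. Of 15 epithelial markers 4 were higher in each, with 1 lower in AhR-/- and 8 lower in CYP1B1-/-. Of 6 endothelial markers 2 were higher in CYP1B1-/- and 0 in AhR-/-, with 0 lower, and of 6 mesenchymal markers 0 passed in either. The part of these markers in the differences was not tested. The count of 7 members called in AhR-/- was 3 without AhR-/- HDM replicate 1 or without naive replicate 3 or 4, and 12 without HDM replicate 4 or without both HDM libraries with high Y-linked levels.

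The next comparison asked how AhR-/- cells differed from WT cells after HDM. Genes of replication and mitosis were lower in AhR-/-, while the replication-dependent histones tested were spread around 0. Of these, only 2 have an annotated end at the stem-loop, 17 run beyond it and 3 hold none. The 20 members that end at the stem-loop, most of them untested, summed to 4.55 ± 1.03 CPM in AhR-/- and 9.20 ± 1.44 CPM in WT after HDM (SD, n = 4 each). That sum was not tested. Of 22 replication-dependent members tested, 2 were higher, Hist3h2a and Hist1h2bc, while 9.22% of all 14161 genes tested were higher by edgeR. In the other direction 0 of the 22 were lower, while 12.9% of all genes were lower. With an unadjusted p under 0.05, 3 were higher and 1 lower, and limma voom called 2 lower (Hist1h1b and Hist2h2ac) and 4 higher, where DESeq2 and edgeR's likelihood ratio test called 0 lower and 2 higher. In either direction limma voom called 47.1% of all genes, DESeq2 32.2% and the likelihood ratio test 29.1%. The median log2 fold change was -0.03 for the replication-dependent members, 0.05 for the 7 other histones, -0.00 over all genes and -2.19 for the replication and mitosis list, in which 32 of 35 genes were lower and 0 higher. In the same comparison 7 of 24 hematopoietic markers were lower and 0 higher (median -1.28), and 3 of 15 epithelial markers were higher and 0 lower (median 1.52). Of 6 endothelial markers 1 was lower and 0 higher (median -0.19), and 0 of 6 mesenchymal markers passed (median 1.03, all 6 above 0). Their part in the differences of the lists was not tested. Of the other histones, H1f0 was higher and H2afx lower.

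Hist3h2a was 31.2, 15.4, 39.1 and 39.4 CPM in AhR-/- and at most 14.0 CPM in WT after HDM, with no overlap. Its log2 fold change was 1.42 ± 0.35 (edgeR adjusted p = 0.0267). Hist1h2bc was 237.8, 89.0, 389.5 and 311.8 CPM in AhR-/-, and the second of these lay within the WT range of 24.6 to 124.5 CPM. Its log2 fold change was 1.84 ± 0.57 (adjusted p = 0.0406). H1f0 was 216.6, 153.5, 66.8 and 73.6 CPM in AhR-/- and 52.4, 34.2, 43.8 and 33.5 CPM in WT, a log2 fold change of 1.63 ± 0.42 (adjusted p = 0.0275). H2afx was 7.51, 11.4, 2.73 and 5.30 CPM in AhR-/-, from 6 counts in replicate 3 to 210 in replicate 1. In WT it was 36.8, 19.3, 68.2 and 55.8 CPM, and the log2 fold change was -2.68 ± 0.73 (adjusted p = 0.0295). The remaining members did not pass, among them H2afy2 (1.38, adjusted p = 0.0583), Hist1h2be (0.85, adjusted p = 0.0913), Hist1h3e (-1.71, adjusted p = 0.118), H2afz (-0.85, adjusted p = 0.207) and Hist1h1c (-0.11, adjusted p = 0.763).

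These 4 calls rested on the full set of libraries. Without AhR-/- replicate 1, 3 or 4 or without WT replicate 1, 3 or 4, 0 members passed the test. With the hematopoietic markers as a covariate 0 passed and the log2 fold changes were 0.92 for Hist3h2a, 0.82 for Hist1h2bc, 1.64 for H1f0 and -1.49 for H2afx. Without AhR-/- replicates 3 and 4, the HDM libraries with high Y-linked levels and low hematopoietic sums (879 to 1103 CPM), they were 0.95, 1.12, 2.14 and -2.30, and 0 passed. The direction of all 4 was the same in every one of these fits. The sum of replication-dependent members without Hist1h2bc was 115.3 ± 5.85 CPM (n = 4) in AhR-/- and 107.6 ± 31.5 CPM (n = 4) in WT after HDM.

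**Figure D4:**
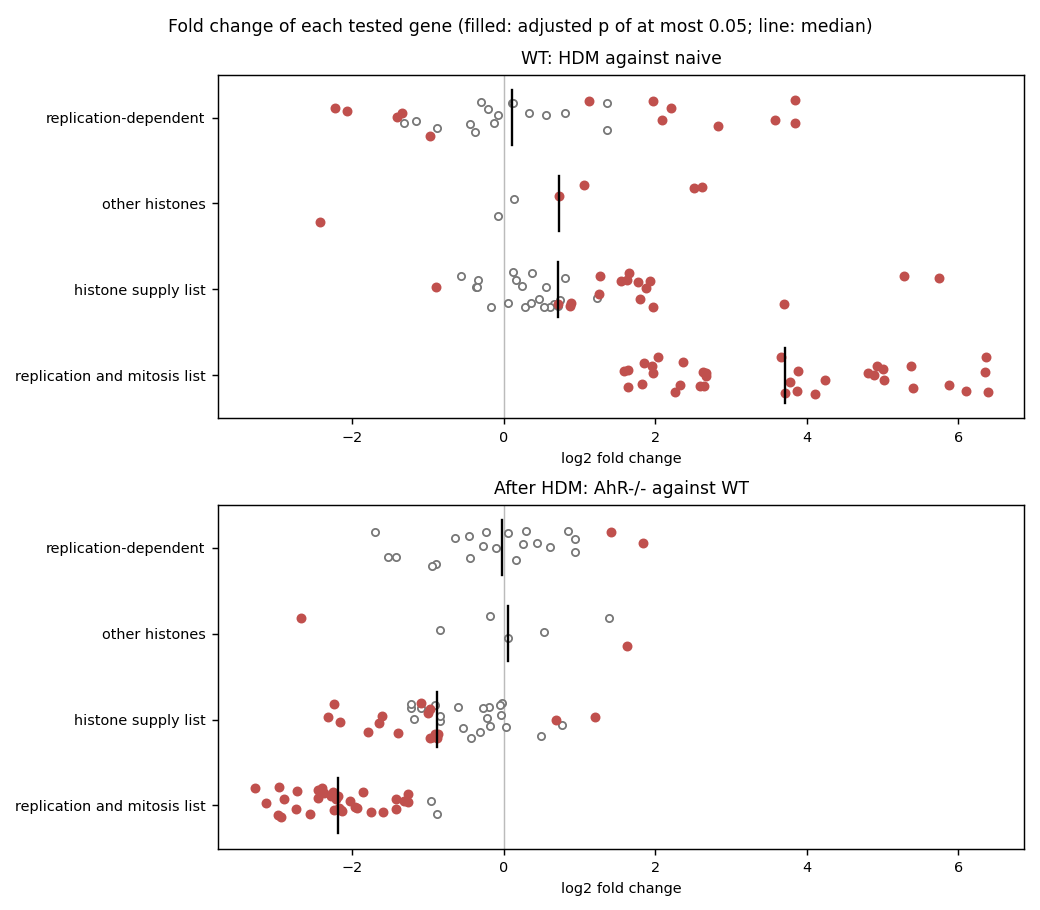
Each point is 1 tested gene at its log2 fold change, filled where the adjusted p was at most 0.05, and the line is the median of the list. In WT after HDM the replication and mitosis genes lie at a median of 3.72 and the replication-dependent histones at 0.11, and in AhR-/- against WT after HDM the medians are -2.19 and -0.03. The median of 0.11 includes members that did not pass the count filter within each state on its own.

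Genes that supply histones were given as a list of 38, with factors of histone mRNA processing, chaperones and the H3.3 and CENP-A variants. In AhR-/- against WT after HDM 14 of the 38 were lower and 2 higher, with a median log2 fold change of -0.88, while 12.9% of all genes were lower and 9.22% higher. The hematopoietic and epithelial markers, with medians of -1.28 and 1.52, differed in the same libraries, and their part in this difference was not tested. Cenpa, the centromeric H3, was lower (-2.32, edgeR adjusted p = 0.0289), as were the replication chaperones Chaf1a (-2.25, adjusted p = 0.0273) and Chaf1b (-1.65, adjusted p = 0.0358), and Eri1, an exonuclease that trims histone mRNA ends (-1.61, adjusted p = 0.0267). The 2 genes of H3.3 diverged, with H3f3a lower (-1.40, adjusted p = 0.0465) and H3f3b higher (1.20, adjusted p = 0.0332). Asf1a, a histone chaperone, was also higher (0.69, adjusted p = 0.0360). Slbp, which binds the hairpins shown above, did not pass (-0.91 ± 0.39, adjusted p = 0.102), nor did Npat (0.03) or Casp8ap2 (-0.18), which act in histone gene transcription. In WT after HDM against steady state, 16 of the 38 were higher and 1, the cleavage factor Cstf2t, lower (-0.90), while 19.0% of all genes were higher and 19.4% lower. Slbp was higher by 1.87 (adjusted p = 0.00148) and Cenpa by 5.28 (adjusted p = 8.70e-06) on the log2 scale, while Npat (-0.57) and Casp8ap2 (0.06) did not pass.

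The difference in the HDM response between AhR-/- and WT was tested as an interaction over both states. By edgeR 0 of 36 members and 0% of all genes passed, and 3 members had an unadjusted p under 0.05, while 18.3% of all genes did. They were H2afx (-2.73 ± 0.87, adjusted p = 0.149), H1f0 (1.70, adjusted p = 0.174) and Hist1h2bc (1.58, adjusted p = 0.240). DESeq2 called 1 member beside 7.34% of all genes, limma voom 8 beside 30.3% and edgeR's likelihood ratio test 0 beside 1.33%. Leaving out AhR-/- HDM replicate 2 gave 1, H2afx. A difference in response was thus not shown for any member by edgeR's quasi-likelihood test.

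CYP1B1-/- and WT cells were compared after HDM in the same way. By edgeR 0 of 29 members and 0% of all genes passed, and 3 members had an unadjusted p under 0.05, while 1.65% of all genes did. DESeq2, limma voom and edgeR's likelihood ratio test called 0 members. Hist1h1c was 18.7, 25.1, 27.6 and 21.8 CPM in CYP1B1-/- and 63.4, 28.1, 46.7 and 30.7 CPM in WT, with no overlap and a log2 fold change of -0.78 ± 0.22 (edgeR adjusted p = 0.999). Hist1h3e was -1.82 and H1f0 0.95 on the log2 scale, each with an adjusted p of 0.999. H2afx, at 36.4 ± 31.1 CPM, spanned 1.73 to 67.8 CPM in the libraries labelled CYP1B1-/-. As an interaction with state, 0 of 36 members and 0% of all genes passed by edgeR, the 3 other tests also called 0 members, and 3 members had an unadjusted p under 0.05 beside 2.30% of all genes. The lowest of these was Hist1h1c (-1.43 ± 0.38, edgeR adjusted p = 1.00).

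At steady state no histone member passed the test between genotypes. In AhR-/- against WT 0 of 27 members and 0% of all 15547 genes tested passed by edgeR, the 3 other tests called 0 members, and 2 members had an unadjusted p under 0.05, while 1.69% of all genes did. In CYP1B1-/- against WT 0 of 27 members passed by edgeR (0.0129% of all genes), the 3 other tests called 0 members, and 2 had an unadjusted p under 0.05 beside 5.80% of all genes. The H3 gene Hist1h3d was above WT in both knockouts (0.71 and 0.81 on the log2 scale) and shares its WT libraries between them. The summed replication-dependent level was 314.9 ± 24.6 CPM (n = 4) in WT, 371.0 ± 46.7 CPM (n = 3) in AhR-/- and 352.1 ± 93.6 CPM (n = 3) in CYP1B1-/-. The wide spread in the latter came with replicate 2, where Hist1h2bc was 90.0 CPM against 262.8 and 250.1 CPM in replicates 3 and 4.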

How the data were processed

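RNA of 22 libraries of sorted lung ECs was measured. Per the labels and methods, reads were mapped to mm10 with GSNAP and counted per gene with featureCounts 2.0.0 on Ensembl release annotation, and the deposited values are raw counts without normalization. Strand and multi-mapping settings were not given in the sources used here. Nothing in the labels names the animal behind a library, so p-values measure the spread between libraries.

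Genes were matched by identifier to GENCODE M21. CPM used TMM library sizes over all 22 libraries. Tests used R 4.3.3 and edgeR 4.0.16 (filterByExpr, minimum count 10 and minimum total 15; glmQLFit with robust estimation, glmQLFTest), on all protein-coding genes, with Benjamini-Hochberg adjustment at 0.05. Genotypes were compared within each table and states and interactions over both. SE is the absolute log2 fold change over the square root of F. Alternatives included DESeq2 1.42.0 and limma 3.58.1, and fits without the 2 HDM libraries with high levels of Y-linked genes were added after the data were seen. Scripts were tested on simulated data.

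The members, lists and named genes (members past the threshold, members of at least 10 CPM, testis-type members and fixed genes of the lists) were chosen with earlier results of these data known. The members' annotated ends come from GENCODE M21, promoters from RefSeq GRCm38.p6. Amino acid sequences were not used here.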

Additional observations from a re-analysis of the deposited data

Results flagged for a closer look

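In each group of 4 libraries, the gap of the highest or lowest library to its neighbour was divided by the range of the group, for the 9 members of at least 10 CPM and the 2 class sums. Of 44 groups tested, 4 exceeded the 95% critical value of Dixon for 4 libraries, where chance flags about 1 in 20. H1f0 was 133.9 CPM in CYP1B1-/- HDM replicate 2 against 49.2 to 61.3 CPM in the other 3 libraries (ratio 0.858). In AhR-/- HDM replicate 1, the macroH2A gene H2afy was 65.6 CPM against 19.7 to 23.7 CPM (ratio 0.914) and H2afj was 71.7 CPM against 28.6 to 33.6 CPM (ratio 0.883). That library also had the highest sum of epithelial markers, 86230 CPM, and its part in these values was not tested. H2afv was 42.6 CPM in naive WT replicate 4 against 29.4 to 31.0 CPM in the others (ratio 0.881).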

How the results depend on the processing

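In AhR-/- against WT after HDM, where 4 members passed, limma voom gave 10, and the replicate block, the hematopoietic or Y-linked markers as a covariate and fits without the 2 libraries with high Y-linked levels each gave 0, while leaving out single libraries gave 0 to 4. After HDM against steady state, requiring at least 10 counts in every library, which tests fewer genes, gave 6 in place of 18 in WT, 4 in place of 7 in AhR-/- and 6 in place of 17 in CYP1B1-/-. Leaving out single libraries gave 13 to 17, 3 to 12 and 10 to 19, and dropping the 2 libraries with high Y-linked levels gave 12 in AhR-/-. In the interaction of AhR-/- and state, DESeq2 gave 1 and limma voom 8 in place of 0, and single libraries left out gave 0 to 1. The cause was not tested. Over single members named with a fold change, 1 of 672 other settings reversed a direction: H2afz in AhR-/- against WT after HDM, 0.12 with the hematopoietic markers as a covariate.

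Same-numbered libraries did not consistently deviate together: the correlation of their deviations ran from -0.469 to 0.672 over 20 pairs and was over 0.1 in 8 of them. Libraries of different numbers were not correlated in this way, so that these values cannot decide whether the numbers pair the samples. The replicate block moved the members called from 18 to 16 in WT, from 17 to 14 in CYP1B1-/-, and from 4 to 0 in AhR-/- against WT after HDM.

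Summed levels moved by more than 1 SD under 2 settings. Scaled by the totals of all genes, naive WT and AhR-/- stood at 445.5 and 519.0 CPM for replication-dependent and 201.6 and 208.8 CPM for other histones. Without Hist1h2bc the replication-dependent sums were 120.1, 142.2 and 151.2 CPM in naive WT, AhR-/- and CYP1B1-/- and 107.6, 115.3 and 82.3 CPM after HDM. Without H1f0 the other histones stood at 101.1 and 105.2 CPM in naive WT and AhR-/-. Depth limits the rare members, since 3 counts in AhR-/- HDM replicate 3 are 1.36 CPM.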

Other observations

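Summed levels of the replication-dependent histones by type are given for WT, AhR-/- and CYP1B1-/- in that order, naive libraries first (SD, n = 4, 3 and 3) and HDM libraries second (n = 4 each). The 6 H1 genes stood at 54.2 ± 5.48, 61.6 ± 5.08 and 76.5 ± 18.8 CPM in naive and 52.3 ± 19.6, 46.2 ± 8.31 and 31.6 ± 4.26 CPM in HDM libraries. The 16 H2A genes stood at 36.8 ± 2.73, 49.7 ± 9.78 and 40.2 ± 13.6 CPM in naive and 23.3 ± 3.67, 37.2 ± 10.8 and 20.9 ± 6.03 CPM in HDM libraries. The 17 H2B genes, whose sum is mostly Hist1h2bc, stood at 209.0 ± 20.3, 244.2 ± 38.6 and 216.8 ± 99.6 CPM in naive and 87.8 ± 49.2, 271.0 ± 126 and 79.2 ± 34.1 CPM in HDM libraries. The 10 H3 genes stood at 4.51 ± 0.952, 6.22 ± 1.28 and 7.35 ± 3.33 CPM in naive and 6.31 ± 1.46, 5.42 ± 0.485 and 3.12 ± 1.76 CPM in HDM libraries. The 13 H4 genes stood at 10.3 ± 0.760, 9.35 ± 0.725 and 11.2 ± 2.50 CPM in naive and 11.0 ± 3.51, 12.5 ± 1.68 and 11.2 ± 1.66 CPM in HDM libraries. Differences between the types were not tested. The 20 members whose annotated transcript ends at the stem-loop summed to 7.04 ± 1.13 CPM in naive WT and 9.20 ± 1.44 CPM in WT after HDM, and to 7.83 ± 1.49 CPM (n = 3) in naive and 4.55 ± 1.03 CPM (n = 4) in HDM libraries labelled AhR-/-. In those labelled CYP1B1-/- they summed to 9.16 ± 1.10 CPM (n = 3) in naive and 6.69 ± 1.37 CPM (n = 4) in HDM libraries. The lowest WT library after HDM (7.45 CPM) was above the highest AhR-/- one (5.62 CPM). These sums over members carry no test, and the SD is that between libraries.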
